A study of Mus musculus with 6 samples.

Results

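RAB GTPases, the family of small membrane-bound switches that direct vesicle traffic, were followed in BV2 cells that overexpressed TDP43-NLS, with GFP-overexpressing BV2 cells as the control. The members were all protein-coding genes of the deposited annotation whose name is Rab followed by a number and at most 1 letter and 1 further digit, which gave 54 genes of the 55359 in the count table. BV2 is an immortalised mouse microglial line, and TDP43-NLS is what the design text calls TDP-43 NLSmut. TDP-43 is a nuclear protein that binds RNA, and NLS is the usual abbreviation of nuclear localisation signal. Poly(A)-selected RNA was sequenced from 3 libraries of each group, numbered 1 to 3. The labels name no promoter, species of construct or separate culture, so p-values measure only the spread between these libraries, which may be technical.

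A RAB protein cycles between a GDP-bound form held in the cytosol by GDP dissociation inhibitors and a GTP-bound form on a membrane, where it recruits effectors such as tethers and motors. Exchange factors load GTP, GTPase-activating proteins end the signal, and a geranylgeranyl transferase attaches the lipid anchor. Each RAB marks particular membranes: the Rab1 proteins act between endoplasmic reticulum and Golgi, the Rab5 proteins on early endosomes, Rab7 on late endosomes and the Rab3 proteins on secretory vesicles. In microglia and other phagocytes the endosomal RABs carry engulfed cargo from phagosome to lysosome, and the exocytic RABs release cytokines and granule contents.

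Totals ran from 15062131 to 18005592 counted reads per library. No pair of libraries within a group was identical: the chi-square statistic over its degrees of freedom was lowest for GFP replicates 1 and 3 (1.197) and highest for GFP replicate 2 against these (7.18 and 7.24). Tardbp, the mouse gene for TDP-43, was counted at 5671, 6506 and 6633 reads in libraries labelled TDP43-NLS, against 7229, 7160 and 8154 in those labelled GFP (log2 fold change -0.26, standard error 0.05, adjusted p = 0.000291). This is opposite to the overexpression named by the label, and whether construct reads fall on Tardbp was not tested, so "TDP43-NLS" below means the libraries labelled so and every direction rests on the labels. All 10 listed microglial and macrophage markers were above 1 CPM in both groups together, with summed levels of 2473 to 2528 CPM in TDP43-NLS and 2660 to 2697 CPM in GFP libraries. The neuronal, astrocytic, fibroblast and T cell lists each stayed under 1.69 CPM in summed level, and Rbfox3, Snap25, Aqp4, Dcn and Cd3e had no FPKM row. The oligodendrocyte list was at 3.48 to 5.32 CPM in TDP43-NLS and 3.13 to 5.32 CPM in GFP libraries. The summed endothelial list, of which Kdr alone of 4 genes passed 1 CPM, was 3.17 to 4.04 CPM in TDP43-NLS libraries, against 0.626 to 1.09 CPM in GFP libraries, and its part in any result was not tested. In bulk RNA a smaller number of cells of a type and less RNA per cell cannot be told apart.

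RAB genes moved in both directions, by small amounts in most cases. Of the 54 members, 44 had enough reads to be tested, and 17 of these rose and 12 fell in TDP43-NLS cells at an adjusted p under 0.05. That is 65.9% of the tested members, against 57.5% of all 13199 tested genes and 61.6% of tested protein-coding genes, so the share of RAB genes called lay near the background. The background was 29.3% for genes that rose and 28.2% for genes that fell. The median log2 fold change was 0.03 over the members and 0.00274 over all tested genes. Of the 29 called members, 16 changed by less than 0.5 on the log2 scale. The 13 called with a larger change are 29.5% of those tested, against 24.2% over all genes. Rab44 and Rab15 were the 2 called with a change of at least 1, which 9.99% of all genes had. The groups did not overlap in 29 tested members (65.9%), against 63.2% over all genes. The number that rose was 9 by DESeq2 and also 9 without TDP43-NLS replicate 3.

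**Figure D1:**
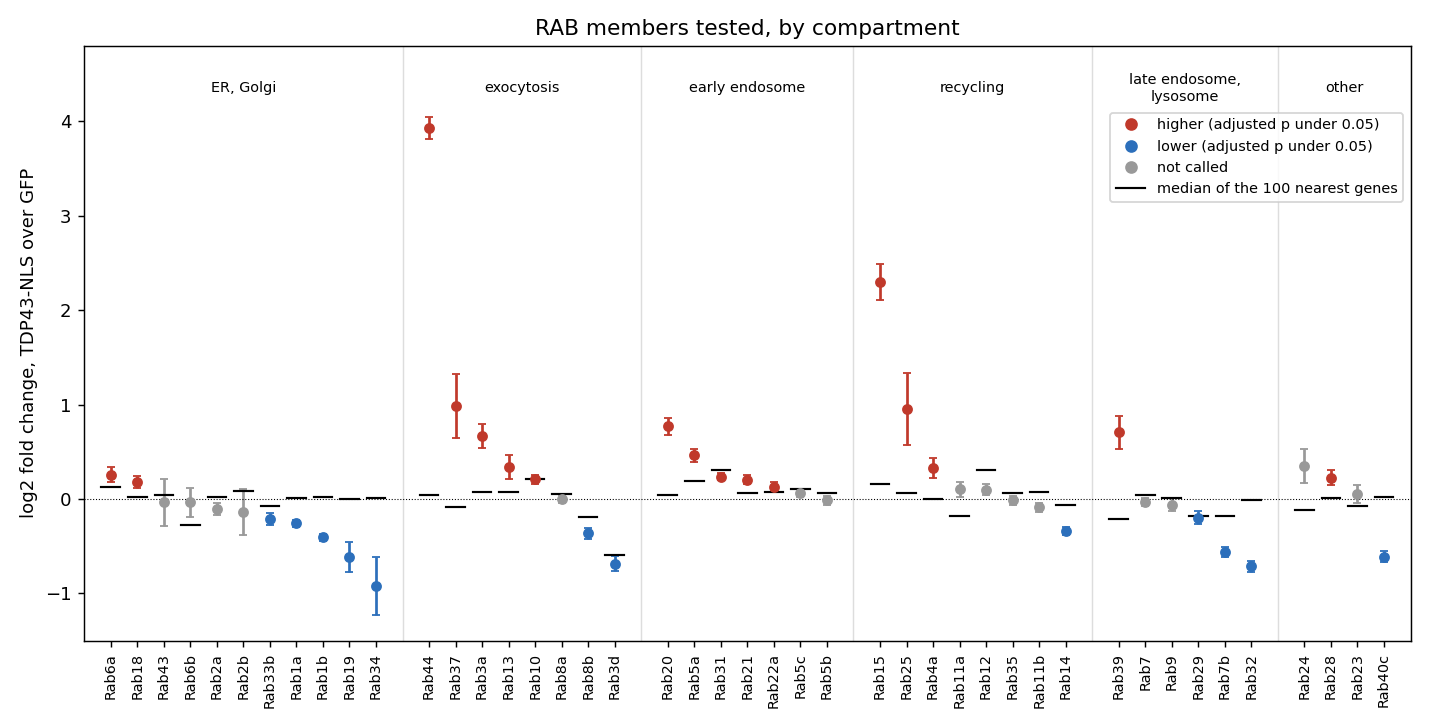
Log2 fold change (TDP43-NLS over GFP, vertical axis) of the 44 tested RAB members, grouped by compartment and ordered within it. Points are edgeR estimates with 1 standard error, coloured by call, and black bars give the median of the 100 nearest well-expressed genes on the chromosome. Rab44 at 3.93 and Rab15 at 2.30 stand above the remaining members, which lie between -0.92 and 0.99.

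Most RAB transcript came from a few genes. In FPKM, which scale reads by gene length and depth, Rab7, Rab1a, Rab1b, Rab5c and Rab31 had the highest means, and the 10 most abundant members held 67.7% ± 0.771 of all RAB FPKM in TDP43-NLS libraries and 68.9% ± 0.392 in GFP libraries (SD, n = 3 each). All RAB FPKM together summed to 833, 846 and 863 in the TDP43-NLS libraries, against 905, 911 and 908 in the GFP libraries. The sum was thus lower by 6.66% on average, and the libraries of the groups did not overlap. After TMM scaling the summed RAB level in CPM was 2897, 2953 and 3011, against 3085, 3098 and 3098 in GFP libraries. The largest changes, of Rab44 and Rab15, were at low levels, and the 12 members with a mean of at least 20 FPKM had log2 fold changes between -0.71 and 0.24.

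**Figure D2:**
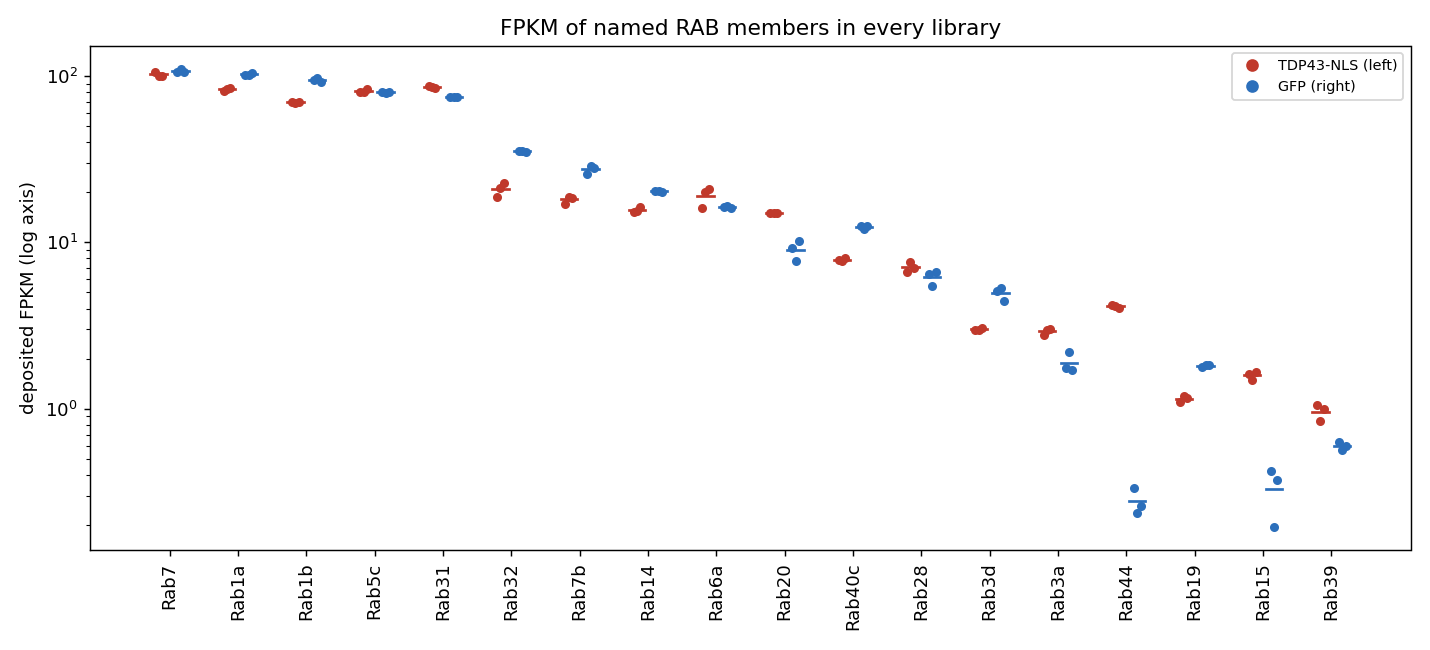
Deposited FPKM (log axis) of the 18 RAB members named with full values, ordered by mean level. Each point is 1 library and each bar a group mean, TDP43-NLS left of GFP. Rab44 and Rab15 show the widest gap between groups, and Rab7 libraries of both groups overlap near 100 FPKM.

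By hand-assigned compartment, called early endosome RABs all rose, while ER, Golgi and late endosome RABs included both directions. Of 7 early endosome and phagosome members, 5 rose and none fell (median log2 fold change 0.21). Of 11 tested ER and Golgi members, 2 rose and 5 fell (median -0.13). Of 6 tested late endosome and lysosome members, 1 rose and 3 fell (median -0.13). Among 8 exocytic members 5 rose and 2 fell (median 0.28), and among 8 recycling endosome members 3 rose and 1 fell (median 0.10). With the median shift of neighbouring genes removed, 3 early endosome members rose, 3 exocytic members rose and 1 fell, and 3 recycling members rose and 3 fell. The exocytic count that rose was 3 without GFP replicate 3 or TDP43-NLS replicate 3, and the recycling count was 1 without GFP replicate 1 or TDP43-NLS replicate 3 and 2 without GFP replicate 2 or TDP43-NLS replicate 1. Without GFP replicate 2, 2 recycling members fell. The ER and Golgi count that rose was 0 without TDP43-NLS replicate 2 or 3 and 1 without GFP replicate 3. With DESeq2, 1 ER and Golgi member rose and 2 fell, and no late endosome member rose and 2 fell. By the same method 4 early endosome members rose and none fell. It gave 3 exocytic members that rose and 2 that fell, and 1 recycling member each way. The difference between compartments was not tested. Assignments follow the best-known site of each protein. With the Gene Ontology terms deposited by the authors instead, 11 tested members carry an early endosome term, of which 5 rose and 4 fell, and 7 carry a late endosome or lysosome term, of which 2 rose and 2 fell. Of the 8 hand-assigned late endosome members, 4 carry a late endosome or lysosome term. Rab29 and Rab32 carry the early endosome term instead, and Rab5a does not carry it. A Golgi term is carried by 24 tested members, of which 7 rose and 8 fell (median log2 fold change -0.04).

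Summed FPKM weights these counts by level. The ER and Golgi members summed to 208, 214 and 222 FPKM in TDP43-NLS libraries, against 261, 260 and 259 FPKM in GFP libraries, lower by 17.4%. Without Rab1a and Rab1b the other 11 members summed to 62.2 ± 5.07 FPKM in TDP43-NLS and 63.5 ± 1.69 FPKM in GFP libraries (SD, n = 3 each), with overlapping groups. The late endosome and lysosome members summed to 175, 174 and 177 FPKM, against 205, 211 and 206 FPKM, lower by 15.5%, and without Rab32 and Rab7b to 136 ± 2.30 FPKM in TDP43-NLS and 145 ± 2.06 FPKM in GFP libraries. The early endosome members summed to 234, 234 and 237 FPKM in TDP43-NLS libraries, against 212, 209 and 214 FPKM in GFP libraries, higher by 11%. Without Rab31 the other 6 members summed to 149 ± 3.03 FPKM in TDP43-NLS and 137 ± 2.46 FPKM in GFP libraries, higher by 8.88%. In these sums over whole compartments the groups did not overlap. The exocytic sum was 93.6 ± 3.94 FPKM in TDP43-NLS and 93.9 ± 1.91 FPKM in GFP libraries (SD, n = 3 each), with overlapping groups.

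**Figure D3:**
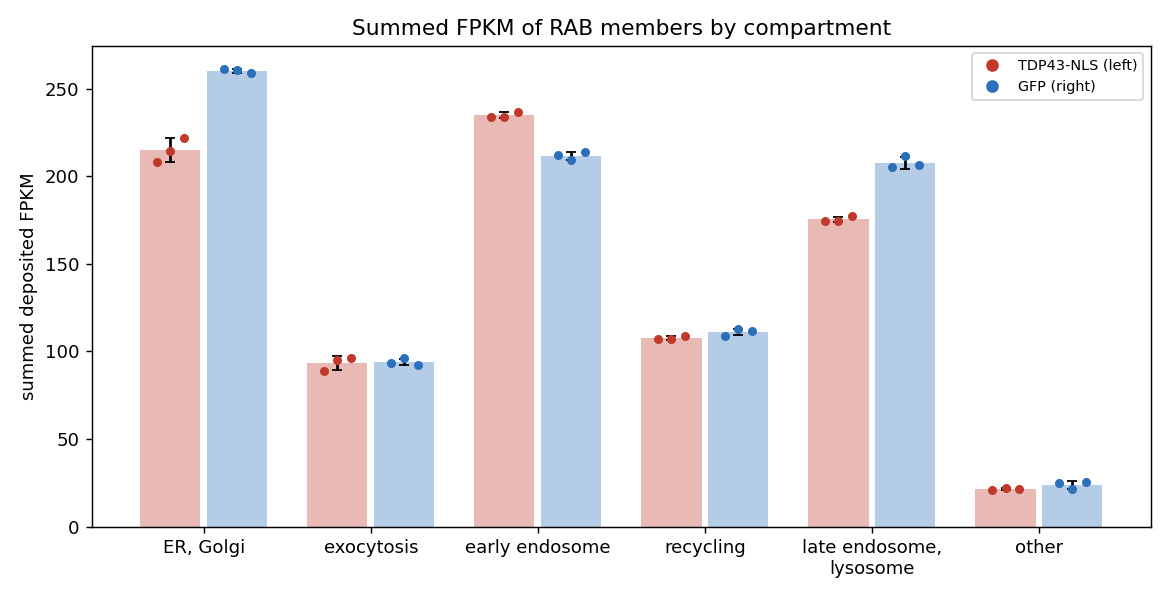
Summed deposited FPKM of the RAB members of each compartment. Bars are means with SD over 3 libraries, points are libraries, and TDP43-NLS stands left of GFP. The early endosome sum is higher in TDP43-NLS (235 against 212), the ER and Golgi sum (215 against 260) and the late endosome sum (175 against 208) are lower.

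The early secretory RABs were led downward by the Rab1 pair, which is needed for ER-to-Golgi transport. Rab1b (ENSMUSG00000024870, chromosome 19, 5149233 to 5157100, minus strand, GRCm39) had 70.0, 68.3 and 69.9 FPKM in TDP43-NLS libraries, against 95.04, 96.6 and 91.5 FPKM in GFP libraries. All TDP43-NLS libraries were below all GFP libraries (log2 fold change -0.41, standard error 0.04, adjusted p = 1.64e-06). Rab1a (ENSMUSG00000020149, chromosome 11) had 81.4, 83.3 and 85.2 FPKM, against 101, 102 and 104 FPKM in GFP libraries, again without overlap (log2 fold change -0.26, standard error 0.04, adjusted p = 7.81e-05). Together the pair fell to 153 ± 2.01 FPKM in TDP43-NLS, against 197 ± 1.52 FPKM in GFP libraries (SD, n = 3 each). Rab33b, a Golgi RAB that binds the autophagy protein ATG16L1, fell by 0.21 on the log2 scale, a call that ended under DESeq2 (adjusted p = 0.0764), with the neighbourhood shift removed (0.0869) and without TDP43-NLS replicate 2 (0.0561). Rab19, a Golgi RAB, had 26, 34 and 32 reads, against 43, 48 and 50 (log2 fold change -0.61, adjusted p = 0.00566), a call that ended under DESeq2 (adjusted p = 0.0897). Rab34, which acts in lysosome positioning and ciliogenesis, fell by 0.92 but rests on 21 reads in TDP43-NLS and 40 in GFP libraries. Its call ended under DESeq2 (adjusted p = 0.222) and without GFP replicate 2 or 3 or TDP43-NLS replicate 1 or 3 (0.0510 to 0.104).

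Other Golgi RABs did not follow the Rab1 pair. Rab6a, which drives Golgi-to-ER retrograde transport, had 16.1, 19.96 and 20.8 FPKM in TDP43-NLS libraries, against 16.2, 16.5 and 16.05 FPKM in GFP libraries. TDP43-NLS replicate 1 lay among the GFP libraries in FPKM. The log2 fold change was 0.26 (standard error 0.08, adjusted p = 0.0110), and the call ended without TDP43-NLS replicate 2 (adjusted p = 0.0509) or replicate 3 (adjusted p = 0.0596). The Rab6a call also ended with the neighbourhood shift removed and under limma. Rab18, a RAB of the endoplasmic reticulum and lipid droplets, rose by 0.18 with groups that overlap in CPM. The Rab18 call ended under DESeq2 (adjusted p = 0.0721), column totals, limma and without GFP replicate 3 or TDP43-NLS replicate 2 or 3 (0.0565 to 0.0950). Rab2a, Rab2b, Rab43 and Rab6b were not called, with log2 fold changes from -0.13 to -0.04.

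Rab44 showed the largest change of the family. It encodes an unusually long RAB with calcium-binding EF hands, known in mice from mast cell granules and osteoclasts. Rab44 (ENSMUSG00000064147, chromosome 17, 29333119 to 29367954, plus strand) had 319, 379 and 360 reads in TDP43-NLS libraries, against 26, 20 and 23 reads in GFP libraries. That is 21.2 ± 0.404 CPM in TDP43-NLS and 1.39 ± 0.254 CPM in GFP libraries (SD, n = 3 each), a 15.3-fold difference (log2 fold change 3.93, standard error 0.12, adjusted p = 2.34e-11). Its level in TDP43-NLS libraries, 4.04 to 4.18 FPKM, remained below that of the abundant endosomal members. The 100 nearest well-expressed genes had a median log2 fold change of 0.04. On log2(FPKM + 1), which understates changes of low genes, its log2 difference was 2.00.

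The remaining exocytic RABs split by paralogue. Rab3a, the RAB of synaptic and other regulated secretory vesicles, had 93, 119 and 118 reads in TDP43-NLS libraries, against 60, 81 and 66 in GFP libraries (log2 fold change 0.67, standard error 0.13, adjusted p = 0.000562). Rab3d, a granule RAB of secretory cells, had 187, 224 and 226 reads, against 328, 370 and 324 (log2 fold change -0.68, standard error 0.08, adjusted p = 1.17e-05). Neither gene's groups overlapped. The 100 nearest genes of Rab3d on chromosome 9 had a median log2 fold change of -0.60, and once that was removed its log2 fold change was -0.09 (adjusted p = 0.401). Rab3a took 49.2% ± 0.870 of Rab3 FPKM in TDP43-NLS and 27.5% ± 1.80 in GFP libraries (SD, n = 3 each). Reads of Rab3a cannot be separated from those of Mpv17l2 on the opposite strand where the genes overlap, since the sources used here do not say that counting used strand.

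Rab8b, a RAB of exocytosis at the plasma membrane, fell to 19.0, 22.2 and 22.3 FPKM in TDP43-NLS libraries, against 28.6, 27.6 and 27.8 FPKM in GFP libraries (log2 fold change -0.36, adjusted p = 0.000119), with a neighbourhood median of -0.19 on chromosome 9. Its paralogue Rab8a had 129 CPM in TDP43-NLS and 128 CPM in GFP libraries (log2 fold change 0.0045, standard error 0.04). Rab10, which acts in glucose transporter exocytosis, and Rab13, a RAB of cell junctions, rose by 0.21 and 0.34. The Rab13 call ended under DESeq2 (adjusted p = 0.182), column totals (0.0505), the removal of the neighbourhood shift (0.0862) and without GFP replicate 2 or 3 or TDP43-NLS replicate 1 or 3 (0.0537 to 0.111). With the shift of its neighbours on chromosome 12 removed, Rab10 had a log2 fold change of -0.01 (adjusted p = 0.900). Rab37, a RAB of mast cell granules, rose by 0.99 on 50 reads in TDP43-NLS and 25 in GFP libraries, a call that ended under DESeq2 (adjusted p = 0.162) and without GFP replicate 1 or 3 or TDP43-NLS replicate 2 or 3 (0.0507 to 0.124). It overlaps Cd300lf, a gene on the other strand that rose by 1.24. Rab27a, which moves secretory lysosomes and granules, was not tested: it had 3 reads in TDP43-NLS and 15 in GFP libraries, a depth-scaled ratio of 0.200 with a 95% exact binomial interval of 0.0371 to 0.707 that covers counting error only.

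**Figure D4:**
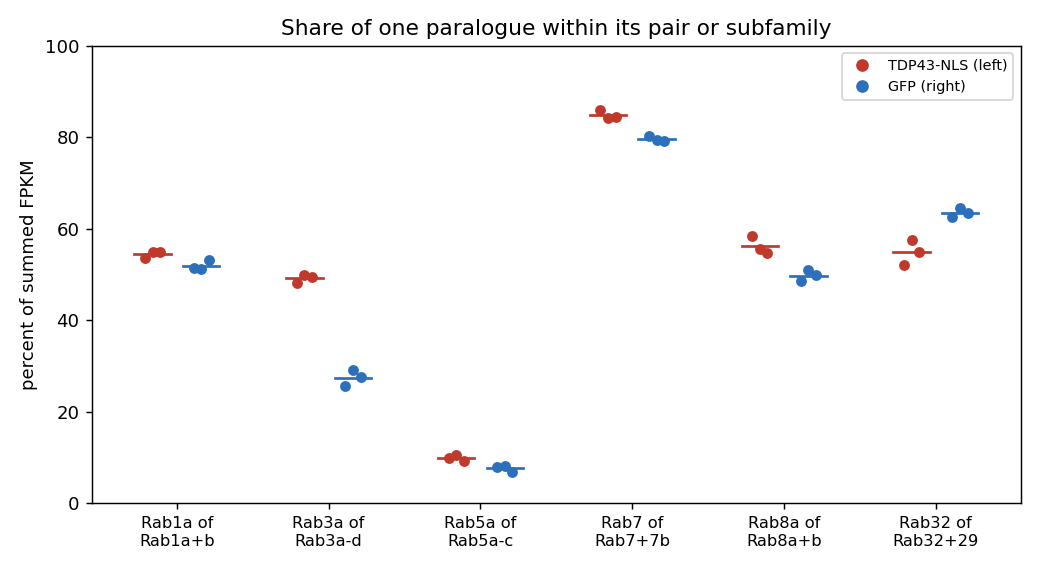
Percent of summed FPKM held by 1 paralogue within its pair or subfamily. Each point is 1 library, each bar a group mean, and TDP43-NLS stands left of GFP. The Rab3a share is 49.2% in TDP43-NLS and 27.5% in GFP libraries, and the Rab32 share of the Rab32 and Rab29 pair is 54.9% and 63.6%.

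Among early endosome RABs, Rab20 rose most. Rab20 has been linked to phagosome maturation in macrophages. Rab20 (ENSMUSG00000031504, chromosome 8, 11503518 to 11528710, minus strand) had 14.9, 15.002 and 15.1 FPKM in TDP43-NLS libraries, against 9.21, 7.67 and 10.1 FPKM in GFP libraries. The groups were apart in all libraries, at 21.1 ± 0.0761 CPM in TDP43-NLS and 12.4 ± 1.73 CPM in GFP libraries (SD, n = 3 each), and the edgeR estimate was 0.77 on the log2 scale (standard error 0.09, adjusted p = 1.07e-05). Rab5a, which drives early endosome fusion, had 832, 1090 and 960 reads, against 685, 736 and 662 (log2 fold change 0.46, standard error 0.07, adjusted p = 5.39e-05). Its paralogues Rab5b and Rab5c, with log2 fold changes of -0.01 and 0.07, were not called, so the Rab5a share of Rab5 FPKM was 9.94% ± 0.652 in TDP43-NLS and 7.67% ± 0.697 in GFP libraries (SD, n = 3 each). The 100 nearest genes of Rab5a on chromosome 17 had a median log2 fold change of 0.19, and the Rab5a call held with that shift removed.

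Rab5c, the most abundant Rab5 gene, had 80.3, 80.1 and 83.3 FPKM in TDP43-NLS and 79.8, 78.5 and 80.5 FPKM in GFP libraries, with overlap in FPKM. Rab31, which sorts cargo between the trans-Golgi network and endosomes, had 87.2, 85.4 and 84.2 FPKM in TDP43-NLS libraries, against 74.2, 74.5 and 74.6 FPKM in GFP libraries (log2 fold change 0.24, standard error 0.04, adjusted p = 0.000126). The nearest genes on chromosome 17 had a median log2 fold change of 0.31, and after its removal the value of Rab31 was -0.07 (adjusted p = 0.142). Rab21, which carries integrins, and Rab22a, which sorts from early to recycling endosomes, rose by 0.21 and 0.13. The Rab22a call ended under most other settings.

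The starts of 3 of the 5 risen early endosome genes held a short motif, and these 3 are shown because they rose and hold it. The sequences are the 250 bases before the start from the RefSeq table on GRCm38.p6, which matched 46 members, printed 5′ to 3′ with CACGTG (the E-box bound by many basic helix-loop-helix factors) in capitals and, for Rab5a, also TGACGTCA (the cAMP response element). Rab20 lies at chr8:11478641-11478890 on the minus strand, Rab21 at chr10:115315592-115315841 on the minus strand and Rab5a at chr17:53478984-53479233 on the plus strand.
Rab20: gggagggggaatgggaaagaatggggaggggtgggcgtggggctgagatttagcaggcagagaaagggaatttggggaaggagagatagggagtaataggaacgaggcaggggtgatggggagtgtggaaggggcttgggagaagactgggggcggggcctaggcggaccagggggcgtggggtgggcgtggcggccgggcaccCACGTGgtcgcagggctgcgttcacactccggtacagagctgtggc
Rab21: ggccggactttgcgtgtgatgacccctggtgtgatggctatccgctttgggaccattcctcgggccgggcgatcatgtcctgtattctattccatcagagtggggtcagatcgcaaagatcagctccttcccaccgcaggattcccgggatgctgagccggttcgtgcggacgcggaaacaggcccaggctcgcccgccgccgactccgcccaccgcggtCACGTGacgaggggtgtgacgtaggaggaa
Rab5a: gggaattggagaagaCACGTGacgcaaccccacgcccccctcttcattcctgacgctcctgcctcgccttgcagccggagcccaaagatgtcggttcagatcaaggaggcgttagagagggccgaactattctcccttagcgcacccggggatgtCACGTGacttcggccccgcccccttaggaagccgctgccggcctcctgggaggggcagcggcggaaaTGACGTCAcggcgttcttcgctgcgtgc
CACGTG, searched on both strands, was in the windows of 5 RAB genes: these 3, Rab23 and Rab27a. It stood in 8.62% of the 58 RAB windows and in 6.02% of all 32851 windows. Rab22a and Rab31, which also rose, have no match in their windows. TGACGTCA was in 3.45% of RAB windows and 1.55% of all windows, TGANTCA in 3.45% and 6.75%, TTCNNNGAA in 8.62% and 7.02%, and the NF-kB motif in 5.17% and 7.25%. No 2 of these motifs overlap in the printed sequences. CACGTG was singled out after the matches were seen, and a match describes letters, not binding.

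Rab15 was the recycling endosome member with the largest change. Its product slows recycling from early endosomes and is best known from neurons. Rab15 (ENSMUSG00000021062, chromosome 12, 76844734 to 76869682, minus strand) had 112, 123 and 135 reads in TDP43-NLS libraries, against 30, 15 and 30 in GFP libraries. In CPM this was 7.40 ± 0.448 in TDP43-NLS and 1.51 ± 0.550 in GFP libraries (SD, n = 3 each), 4.91-fold higher (log2 fold change 2.30, standard error 0.19, adjusted p = 3.21e-07). Rab15 overlaps Fntb on the opposite strand, which fell by 0.16 on the log2 scale.

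Rab14, which acts between Golgi, endosomes and phagosomes, fell to 15.2, 15.4 and 16.4 FPKM in TDP43-NLS libraries, against 20.5, 20.4 and 20.1 FPKM in GFP libraries (log2 fold change -0.34, standard error 0.04, adjusted p = 1.37e-05). Rab4a, a RAB of fast recycling, rose by 0.33, and Rab25, an epithelial relative of Rab11, by 0.95 on 43 reads in TDP43-NLS and 22 in GFP libraries. The Rab4a call ended under DESeq2 (adjusted p = 0.0810) and without GFP replicate 1 (0.0692) or TDP43-NLS replicate 3 (0.0906). The Rab25 groups overlap, and its call ended under DESeq2 (adjusted p = 0.223), upper-quartile and column-total scaling, the removal of the neighbourhood shift, the replicate block, and without any 1 library other than GFP replicate 3 (0.0560 to 0.216). The main recycling RABs Rab11a, Rab11b and Rab35 were not called, with log2 fold changes of 0.10, -0.09 and -0.02, nor was Rab12 (0.10). With the neighbourhood shift removed, Rab12 was lower (log2 fold change -0.21, adjusted p = 0.00797). In that setting Rab11a was also called higher and Rab11b lower. Rab11a was called without TDP43-NLS replicate 2 as well, and Rab11b without GFP replicate 2.

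On late endosomes and lysosomes Rab7b, Rab32 and Rab29 fell, Rab39 rose, and Rab7 and Rab9 were not called. Rab7, which directs late endosome and phagosome fusion with lysosomes, had 105, 101 and 100 FPKM in TDP43-NLS libraries, against 105, 110 and 105 FPKM in GFP libraries, with overlapping groups (log2 fold change -0.03, standard error 0.04, adjusted p = 0.555). Rab7b, which in macrophages limits Toll-like receptor signalling by routing receptors to lysosomes, had 17.1, 18.8 and 18.5 FPKM, against 25.8, 28.7 and 27.8 FPKM in GFP libraries, without overlap (log2 fold change -0.56, standard error 0.05, adjusted p = 1.07e-06). Its nearest genes on chromosome 1 had a median of -0.18. Rab9, which returns receptors from late endosomes to the Golgi, was not called (log2 fold change -0.06).

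Rab32 had the most significant decrease of the family. It acts on lysosome-related organelles and in macrophage defence against bacteria. Rab32 (ENSMUSG00000019832, chromosome 10, 10420746 to 10434009, minus strand) had 18.8, 21.3 and 22.6 FPKM in TDP43-NLS libraries, against 35.6, 35.4 and 34.8 FPKM in GFP libraries. Every TDP43-NLS library was below every GFP library, at 49.5 ± 4.50 CPM in TDP43-NLS and 81.4 ± 0.963 CPM in GFP libraries (SD, n = 3 each), and the edgeR estimate was -0.71 on the log2 scale (standard error 0.06, adjusted p = 4.16e-07). Its nearest genes had a median of -0.01. Rab29, a relative that can recruit the kinase LRRK2 to membranes, fell by 0.20 (adjusted p = 0.0319), close to the median of -0.18 of its neighbours. The Rab29 call ended with that shift removed (adjusted p = 0.858), under DESeq2 (0.101) and without GFP replicate 1 or 3 or TDP43-NLS replicate 1 or 2 (0.0613 to 0.189). Rab38, the other close relative, had 0 reads in all libraries together. Rab39, which acts on phagosomes, was the late endosome member that rose, with 47, 45 and 52 reads in TDP43-NLS libraries, against 29, 28 and 31 in GFP libraries (log2 fold change 0.71, standard error 0.17, adjusted p = 0.00359). Its neighbours on chromosome 9 had a median of -0.21, and DESeq2 gave it an adjusted p of 0.0524.

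Members of other function included Rab40c, which carries a SOCS box and serves a ubiquitin ligase. Rab40c (ENSMUSG00000025730, chromosome 17) had 7.85, 7.77 and 8.02 FPKM in TDP43-NLS libraries, against 12.5, 12.004 and 12.5 FPKM in GFP libraries, without overlap (log2 fold change -0.61, standard error 0.06, adjusted p = 9.09e-07). Rab28, a ciliary RAB, had 6.60, 7.57 and 7.02 FPKM in TDP43-NLS libraries, against 6.44, 5.50 and 6.67 FPKM in GFP libraries, with overlap in FPKM. Its log2 fold change was 0.23 (adjusted p = 0.0262), and the call ended without GFP replicate 2 (adjusted p = 0.0628), TDP43-NLS replicate 2 (0.129) or TDP43-NLS replicate 3 (0.0615). The Rab28 call also ended under DESeq2, column totals and limma. Rab23, an inhibitor of Hedgehog signalling, and Rab24, an autophagy-linked RAB, were not called (0.05 and 0.35). Rab24 was called with no low-count filter, with the neighbourhood shift removed and without GFP replicate 3. Its groups did not overlap in CPM, and its GFP replicates 1 to 3 had 148, 88 and 180 reads. Rab24 overlaps Prelid1 on the opposite strand, which had 16860 reads in TDP43-NLS and 18570 in GFP libraries. The 10 members with too few reads to test were Rab30 with 34 reads in TDP43-NLS and 25 in GFP libraries, Rab33a with 15 and 11, Rab4b with 8 and 8, Rab17 with 7 and 6, Rab27a above, and Rab26, Rab3b, Rab3c, Rab39b and Rab42 with at most 3 reads in a group. Rab27b, Rab36, Rab9b and Rab40b had 0 reads in every library.

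Tested against a log2 fold change of 0.5 instead of 0, Rab44, Rab15 and Rab20 remained higher and Rab32 and Rab3d lower. This is 5 of 44 members, where 14.9% of all tested genes passed.

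The machinery that acts on RAB proteins was examined by lists of 148 genes, of which 134 were tested, 47 rose and 45 fell (median log2 fold change 0.01). The share called was 68.7%, against 57.5% of all tested genes and 61.6% of tested protein-coding genes. The share called with a change of at least 0.5 was 26.1%, against 24.2% over all genes. Of 8 genes of prenylation and GDP-form handling, 4 rose and 2 fell (median 0.12). Rabggta, the alpha subunit of the geranylgeranyl transferase, was at 50.7 ± 1.27 CPM in TDP43-NLS and 25.1 ± 0.419 CPM in GFP libraries (SD, n = 3 each), and the edgeR estimate was 1.01 on the log2 scale (standard error 0.05, adjusted p = 4.28e-09). Gdi2, a GDP dissociation inhibitor, fell by 0.32. Rabac1, which helps RABs onto membranes, rose by 0.62.

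Of 50 tested genes listed as exchange factors, among them Rab3gap1 and Rab3gap2, 20 rose and 15 fell (median 0.08). Dennd1c, a DENN-domain exchange factor, rose by 1.39 on chromosome 17, where its neighbours had a median of 0.20. Rab3il1 and Madd, both exchange factors for Rab3 proteins, fell by 0.995 and 0.68, and Rin2, a Rab5 exchange factor, by 0.55. C9orf72, which forms a complex with Smcr8 and was listed here with the exchange factors, rose by 0.39 (standard error 0.06, adjusted p = 6.44e-05). Smcr8, also listed there, rose by 0.49. Of 33 tested GTPase-activating proteins 10 rose and 14 fell (median -0.05). Tbc1d9 and Tbc1d9b rose by 0.92 and 0.88, and Tbc1d22a and Tbc1d16, the second of which acts on Rab4, fell by 0.79 and 0.59.

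Of 40 tested effectors 12 rose and 13 fell (median 0.00). Rabepk, a Rab9 effector, had 741, 992 and 933 reads in TDP43-NLS libraries, against 2392, 2431 and 2547 in GFP libraries (log2 fold change -1.47, standard error 0.05, adjusted p = 7.85e-11). Micall2, an effector of Rab13, rose by 1.2503 and Exoc6b, an exocyst subunit, by 0.96. Myo5a, the myosin that carries Rab27a- and Rab11-bearing vesicles, fell by 0.77, with a neighbourhood median of -0.29 on chromosome 9.

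Lrrk2 and Ppm1h moved in opposite directions. Lrrk2, the kinase that phosphorylates Rab8a, Rab10, Rab29 and other RABs, had 757, 865 and 871 reads in TDP43-NLS libraries, against 294, 348 and 369 in GFP libraries. This is 49.9 ± 1.24 CPM in TDP43-NLS and 20.2 ± 1.11 CPM in GFP libraries (SD, n = 3 each), and the edgeR estimate was 1.30 on the log2 scale (standard error 0.06, adjusted p = 1.05e-09). Ppm1h, the phosphatase that removes these phosphates, was at 49.3 ± 1.85 CPM in TDP43-NLS and 86.6 ± 2.81 CPM in GFP libraries (log2 fold change -0.81, standard error 0.05, adjusted p = 1.86e-08). Lrrk1, the related kinase, was not called (log2 fold change 0.06, adjusted p = 0.436). RNA levels do not report RAB phosphorylation, which was not measured.

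**Figure D5:**
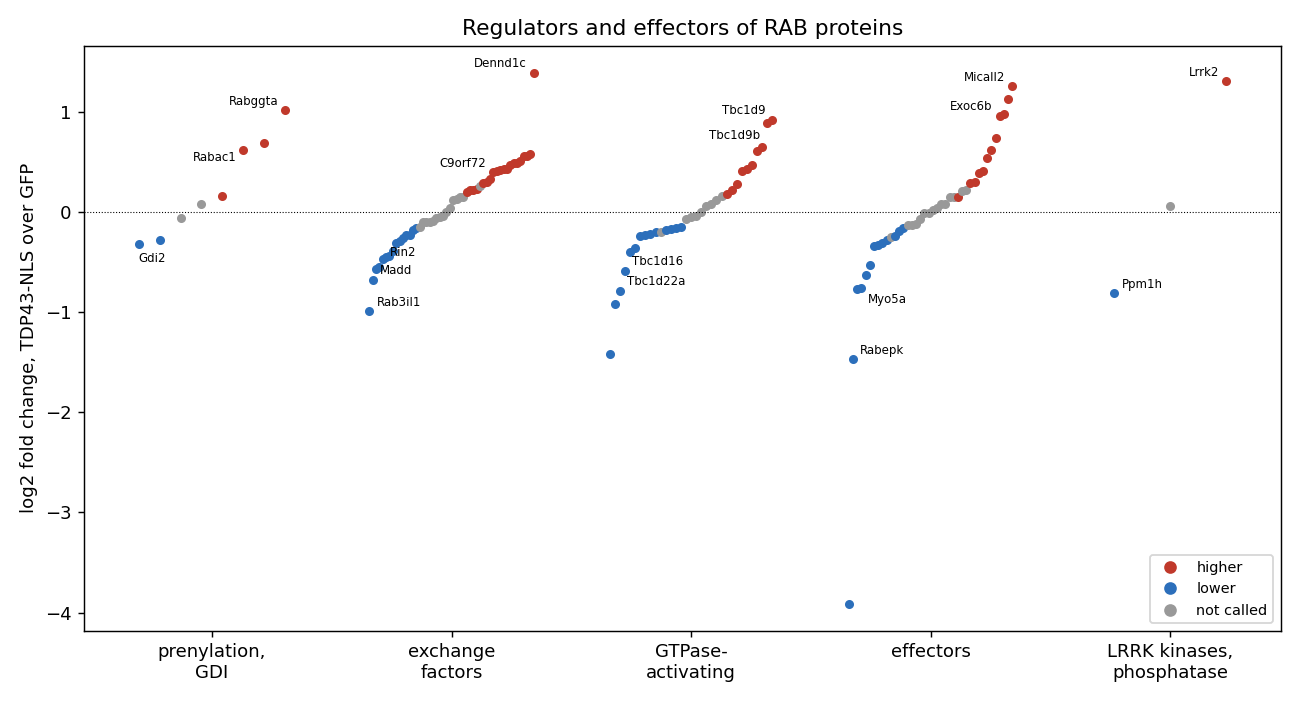
Log2 fold change (TDP43-NLS over GFP, vertical axis) of 134 tested regulators and effectors of RAB proteins, by list and ordered within it. Points are genes, coloured by call, and most of the genes named in the text are labelled. Each of the 3 large lists holds genes on both sides of 0, Lrrk2 lies at 1.30 and Ppm1h at -0.81.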

How the data were processed

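The authors deposited whole-number read counts per gene and FPKM per gene for 6 libraries. Bowtie2 2.2.3, HISAT2 2.1.0 and HTSeq 0.6.0, and the build GRCm39, are named without roles in the labels, per the submitters' processing notes. Strand use and the treatment of reads matching several genes are not given in the sources used here, so near-identical paralogues, pseudogene copies and overlapping genes are uncertain. Counts were tested with edgeR 4.0.16 (R 4.3.3): filterByExpr (10 reads, 15 in total), TMM scaling, quasi-likelihood test on the group, two-sided, with Benjamini-Hochberg adjustment over 13199 genes. "Rose" and "fell" mean an adjusted p under 0.05. The standard error is the log2 fold change over the root of F. CPM are TMM-scaled.

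The members and lists were chosen with earlier results of these data known. Full values are given for called members with a change of at least 0.5 (log2) and a mean of at least 1 CPM, the 5 most abundant, and the most significant per compartment and direction, and up to 4 genes per regulator list. Some items are not reported here. Rab5a, Rab8b, Smcr8, Lrrk1, Mlph and the small-change members were added after their values were seen. Alternatives were other scalings, DESeq2 1.42.0, no filter, a 0.5 threshold, each library left out, a replicate block, the removal of the median shift of the 100 nearest genes, and limma 3.58.1 on log2(FPKM + 1). FPKM sums without Rab1a and Rab1b, without Rab32 and Rab7b or without Rab31 were added after the values were seen.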

Additional observations from a re-analysis of the deposited data

How the results depend on the processing

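Depth (the library totals) limits what can be said of members under 1 CPM. RAB members that rose numbered 17 in the reported analysis, 9 with DESeq2, 3 against a log2 fold change of 0.5, 11 with limma on log2(FPKM + 1), 11 with log2(FPKM + 0.1), 8 with limma and no filter, and 9 to 15 with a library left out. Those that fell numbered 12, 8 with DESeq2, 2 against 0.5, and 10 to 13 with a library left out. With column totals 12 rose and 12 fell. Against 0.5, 12 regulators rose and 12 fell (47 and 45 reported; 40 to 51 and 37 to 46 with a library left out). All tested genes higher in TDP43-NLS numbered 3865, 1221 against 0.5, and 3512 to 4210 with a library left out. All tested genes lower in TDP43-NLS numbered 3723, 744 against 0.5, and 3188 to 4041 with a library left out. Tardbp, at -0.26, was not called against 0.5 (adjusted p = 1) and ran from -0.31 to -0.23 with a library left out. Removing the neighbourhood shift changed the sign of 6 members, among them Rab31 (-0.0686), Rab10 (-0.00857) and Rab12 (-0.21). Rab11a, Rab11b, Rab12 and Rab24 gained a call in that setting. The cause of these changes was not tested. Rab44, Rab15, Rab20 and Rab32 kept their direction and call in all settings run. Replicate numbers did not pair the libraries (correlations of same-numbered deviations -0.04, -0.02 and 0.02). With the replicate block 15 members rose and 12 fell, Rab22a and Rab25 having lost their calls.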

Other observations

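Mlph and Myo5a, which join Rab27a in a motor complex for granules, both fell in TDP43-NLS libraries. Rab27a recruits melanophilin, the product of Mlph, which binds Myo5a. Mlph, chosen after its value was seen, had 11 reads in TDP43-NLS and 171 in GFP libraries (log2 fold change -3.91, standard error 0.28, adjusted p = 7.05e-08). Of 8 tested members with a melanosome term in the deposited annotation, none rose, Rab1a, Rab29 and Rab32 fell, and 5 were not called. The Rab29 call ended under DESeq2 and with the neighbourhood shift removed. Of 17 tested members with a phagocytic vesicle term, 5 rose and 4 fell. Over all tested genes 29.3% rose and 28.2% fell, and neither term was tested against these shares.

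Overlapping genes may share reads, as counting is not stated to use strand. Rab26os, a noncoding RNA that overlaps Rab26 on the other strand, had 76 reads in TDP43-NLS and 174 in GFP libraries (log2 fold change -1.19, adjusted p = 0.000913), while Rab26 itself had 2 in TDP43-NLS and 1 in GFP libraries. Rab10os, which overlaps Rab10, had 1135 reads in TDP43-NLS and 876 in GFP libraries (log2 fold change 0.37, adjusted p = 0.00217).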
